A study of Mus musculus with 12 samples.

Results

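The genes described here are the netrin ligands Ntn1 and Ntn4 and the netrin receptors Dcc, Neo1, Dscam, Unc5a, Unc5b, Unc5c and Unc5d, read by symbol from RNA-seq count tables of mouse neocortex. They are 9 of the 46603 annotated genes in those tables. They were chosen by family, with the measured P5 log2 fold changes between Chd8+/+ and Chd8+/- animals known, so that difference is given below as a description and supports nothing about them. The study compared Chd8+/+ with Chd8+/- mice on the C57Bl/6J strain background, at embryonic day 12.5 (E12.5) and postnatal day 5 (P5). Chd8 encodes a chromatin remodelling factor, and the Chd8+/- animals carried 1 allele without exon 3. That allele was made in an earlier generation by a Cre under the β-actin promoter, and the Cre was then bred out of the line. The labels name no other allele and no agent in either genotype. Each of the 4 groups held n = 3 libraries, 12 in all, and the cortex of both hemispheres was taken at E12.5 but that of only one at P5. The labels do not say whether each library was a separate animal, so p-values measure the spread between these libraries, which may be technical.

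Netrins are secreted, laminin-related proteins that steer growing axons and migrating neurons. Dcc and its relative Neogenin (Neo1) mediate attraction to netrin 1, Dscam is an immunoglobulin superfamily receptor that also binds netrin 1, and the Unc5 receptors mediate repulsion, alone or together with Dcc. In the developing forebrain Dcc is best known for callosal, corticofugal and commissural axon growth, Ntn1 is made by the floor plate and the ganglionic eminences, and Ntn4 also lies in basement membranes of vessels. Neo1 additionally binds repulsive guidance molecules, and Unc5d is known as a receptor of multipolar neurons and layer 4 cells that also binds Flrt proteins.

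Of the 6 genes with a promoter in the RefSeq table, 3 are shown, those whose start is that of the count tables. Of these genes, Unc5a had the largest rise between stages, its paralog Unc5b fell, and Neo1 had the highest level per length of exon. A link between the windows and these changes was not tested. Each sequence is the 250 bases before that start, from RefSeq on GRCm38.p6, 5′ to 3′ on the strand of the gene. Unc5a lies at chr13:54949161-54949410 (plus), Unc5b at chr10:60831582-60831831 (minus) and Neo1 at chr9:59036442-59036691 (minus). Capitals mark the letters of a GC box, GGGCGG or its reverse complement CCGCCC, with overlapping matches run together.
Unc5a: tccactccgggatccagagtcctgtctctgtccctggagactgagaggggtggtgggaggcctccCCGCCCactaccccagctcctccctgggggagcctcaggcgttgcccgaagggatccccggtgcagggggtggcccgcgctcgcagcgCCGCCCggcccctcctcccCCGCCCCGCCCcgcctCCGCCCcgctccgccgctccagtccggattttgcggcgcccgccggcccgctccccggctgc
Unc5b: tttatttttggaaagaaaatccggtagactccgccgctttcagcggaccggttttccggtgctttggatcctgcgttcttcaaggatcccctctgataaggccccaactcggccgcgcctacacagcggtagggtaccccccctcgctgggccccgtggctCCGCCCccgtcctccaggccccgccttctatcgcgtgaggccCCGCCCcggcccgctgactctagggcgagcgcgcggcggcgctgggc
Neo1: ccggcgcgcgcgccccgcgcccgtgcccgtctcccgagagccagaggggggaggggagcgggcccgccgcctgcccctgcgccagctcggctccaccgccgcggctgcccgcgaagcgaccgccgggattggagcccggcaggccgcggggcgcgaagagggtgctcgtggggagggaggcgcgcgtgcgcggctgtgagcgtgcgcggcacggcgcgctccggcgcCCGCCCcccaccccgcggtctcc

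In these 250 bases, Unc5a held 5 GC boxes, Unc5b 2 and Neo1 1, searched on both strands. Of 32851 promoter windows of the same length, 32.7% held at least 1. The letters TATAAA were in none of the 3 windows and in 12.4% of all windows, and CCAAT stood once in that of Neo1 and in 33.8% of all. All 3 were rich in CG dinucleotides: Neo1 held 45, Unc5b 27 and Unc5a 25, against a median of 6.0. The promoters of Unc5a, which rose, and of its paralog Unc5b, which fell, thus both held GC boxes and no TATAAA, a description of the windows and no evidence of a bound factor. In the RefSeq windows of the other 3 genes, which begin from another base than the genes of the count tables, Ntn4, which fell, held 4 GC boxes, and Dscam and Unc5c, which rose, held 0.

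On GRCm38, as in the count tables, Dcc (ENSMUSG00000060534) occupies chr18:71258738-72351069 on the minus strand and spans 1092.3 kb, the longest of the 9 genes. Dscam spans 578.7 kb on chromosome 16, Unc5d 572.6 kb on chromosome 8 and Unc5c 369.7 kb on chromosome 3. Ntn1 spans 191.5 kb on chromosome 11, Neo1 161.8 kb on chromosome 9 and Ntn4 106.5 kb on chromosome 10. Unc5b, with 69.0 kb on chromosome 10, and Unc5a, with 56.6 kb on chromosome 13, are the shortest. Counting was by exon, and the exons sum to between 3741 bases in Ntn4 and 19135 bases in Unc5c. The exons of Unc5a share 34 bases with Hk3 and those of Unc5c share 118 bases with Gm15688, in each case on the opposite strand and under 1% of the exon sequence. The other 7 genes share no exonic base with another annotated gene.

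The libraries held between 38774591 and 54695236 counts on genes, and the counts of single netrin genes ranged from 352 for Ntn4 to 22081 for Neo1. Values are CPM, the counts scaled to the library size after TMM normalization, within the stage for comparisons between genotypes and over 12 libraries for comparisons between stages. Chd8 was at 233 to 238 CPM in the E12.5 Chd8+/+ libraries and 164 to 169 CPM in the Chd8+/- libraries, and at 143 to 148 and 94.1 to 97.7 CPM at P5. Dorsal cortex markers were present throughout, with Tbr1 at 113 CPM or more in each library. Markers of the ventral forebrain were present as well, with Dlx1 at 204 to 257 CPM at E12.5. The second Chd8+/- library at E12.5 stood apart in regional markers and the third Chd8+/- library at P5 differed most from its replicates, with a chi-squared per degree of freedom of 43.7 and 49.7 against 7.09 to 18.1 for the other pairs of replicates. In bulk tissue, fewer cells of a type and less RNA per cell cannot be told apart.

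Between E12.5 and P5 the 9 genes moved in both directions. In Chd8+/+ neocortex Dcc fell 6.39-fold, Ntn4 2.96-fold, Unc5b 2.47-fold and Ntn1 1.93-fold, while Unc5a rose 6.31-fold, Unc5d 4.93-fold, Dscam 4.86-fold, Unc5c 3.29-fold and Neo1 2.27-fold. The 5 that rose and the 4 that fell were all called by edgeR's quasi-likelihood test over all genes. Most genes were called: 41.4% of the 19676 genes tested were higher and 41.7% lower at P5, so 9 of 9 is close to the background and the count says little about these genes. What they show is the size and the direction of each change. For each of the 9 genes the 6 libraries of a stage lay apart from the 6 of the other, as the plot of CPM by library shows. Stage goes together with the deposited table, the sequencing run and the amount of tissue taken, which cannot be told apart from age.

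**Figure D1:**
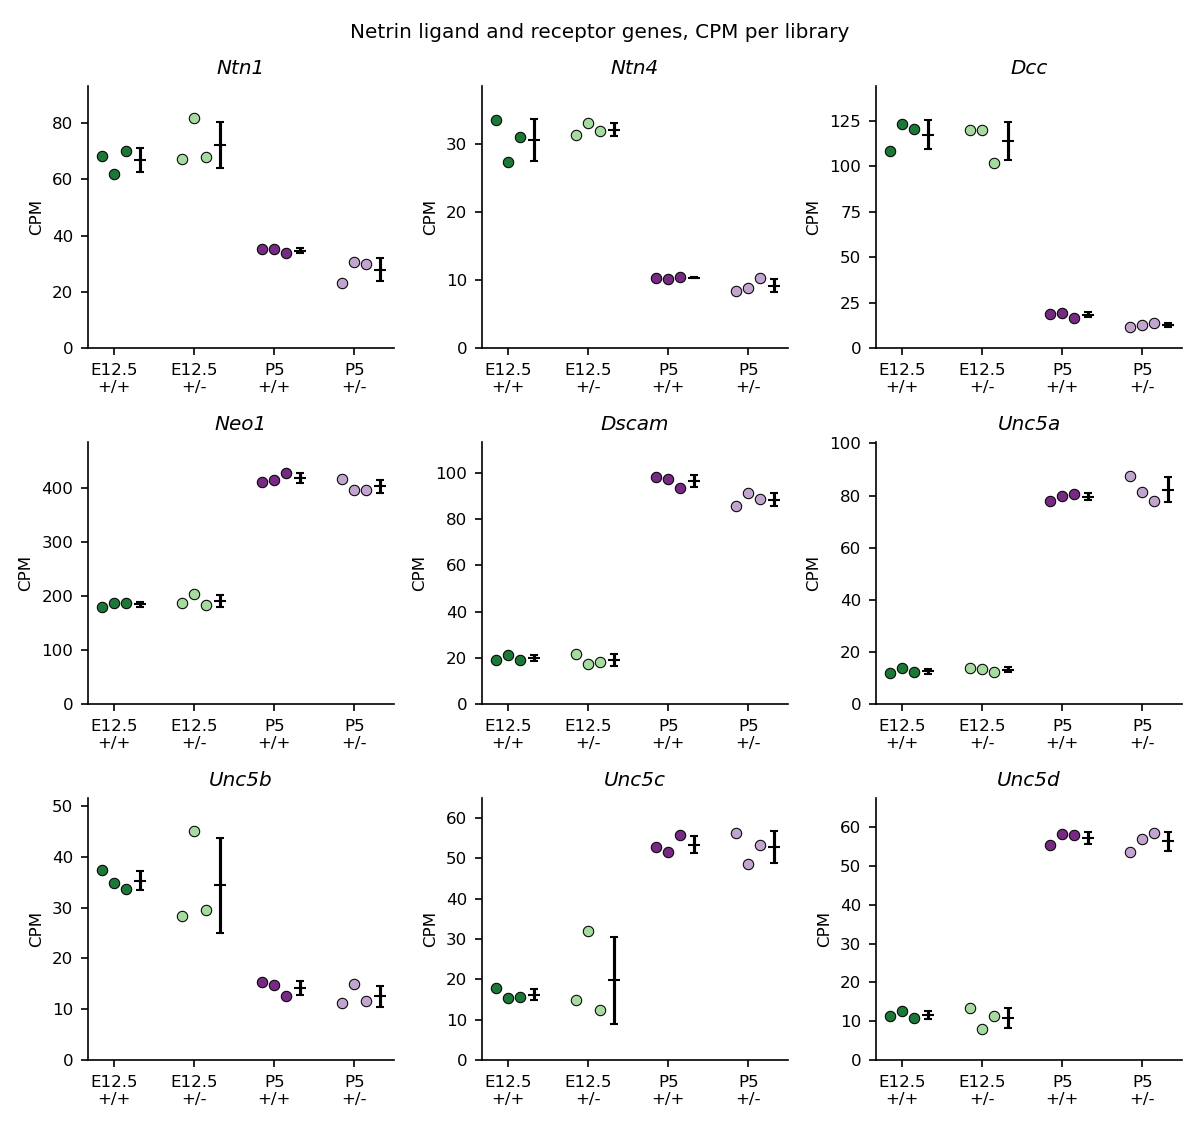
CPM (TMM over 12 libraries, linear axis from 0) of the 9 netrin ligand and receptor genes in each of the 12 libraries, with the mean and SD of each group (n = 3) to the right of its points. Dcc, Ntn1, Ntn4 and Unc5b are lower at P5 in all 6 libraries than in any E12.5 library and the other 5 genes are higher. The second E12.5 Chd8+/- library stands above the other E12.5 libraries in Unc5c and Unc5b.

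Both netrins fell. Ntn1 went from 66.8 ± 4.24 CPM (SD, n = 3) in Chd8+/+ neocortex at E12.5 to 34.7 ± 0.814 CPM at P5, a log2 fold change of -0.95 (SE 0.0976, edgeR adjusted p = 3.83e-07). Ntn4, the vascular and basement membrane netrin, went from 30.7 ± 3.11 to 10.4 ± 0.130 CPM, a log2 fold change of -1.57 (SE 0.0817, edgeR adjusted p = 1.31e-10). Per kilobase of exon, where levels of different genes can be compared, the sum of both ligands was 18.8 ± 1.43 CPM per kb at E12.5 and 8.30 ± 0.105 at P5. Ntn1 was 1.30 ± 0.0787 times Ntn4 per kilobase at E12.5 and 1.99 ± 0.0679 times at P5.

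Among the receptors, Dcc and its relatives went opposite ways. Dcc went from 117 ± 7.93 CPM at E12.5 to 18.3 ± 1.51 CPM at P5 in Chd8+/+ neocortex, a log2 fold change of -2.68 (SE 0.0840, edgeR adjusted p = 3.77e-13). Neo1 rose from 184 ± 4.92 to 418 ± 8.86 CPM, a log2 fold change of 1.18 (SE 0.0499, edgeR adjusted p = 1.09e-11). Dscam rose from 19.8 ± 1.19 to 96.4 ± 2.53 CPM, a log2 fold change of 2.28 (SE 0.0754, edgeR adjusted p = 6.69e-13). Per kilobase of exon, the ratio of Dcc to Neo1 was 0.583 ± 0.0245 at E12.5 and 0.0403 ± 0.00406 at P5.

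The Unc5 receptors changed in composition. Unc5a rose from 12.6 ± 0.994 to 79.5 ± 1.41 CPM (log2 fold change 2.66, SE 0.0684, edgeR adjusted p = 4.46e-14) and Unc5d from 11.6 ± 0.987 to 57.2 ± 1.55 CPM (2.30, SE 0.124, edgeR adjusted p = 1.95e-10). Unc5c rose from 16.2 ± 1.33 to 53.4 ± 2.17 CPM (1.72, SE 0.245, edgeR adjusted p = 1.26e-05). Unc5b alone fell, from 35.3 ± 1.86 to 14.3 ± 1.37 CPM (-1.31, SE 0.156, edgeR adjusted p = 1.92e-06). Per kilobase of exon the sum of the 4 went from 11.2 ± 0.438 to 30.7 ± 0.370 CPM per kb. Of that sum Unc5b made 53.8% ± 1.94 at E12.5 and 7.93% ± 0.833 at P5, while Unc5a went from 27.0% ± 1.89 to 62.1% ± 0.421. Unc5d went from 11.6% ± 0.692 to 20.9% ± 0.322, and Unc5c from 7.57% ± 0.573 to 9.08% ± 0.351. Dcc was 1.30 ± 0.115 times the Unc5 sum per kilobase at E12.5 and 0.0741 ± 0.00646 times at P5.

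The order of the levels per kilobase of exon showed the same exchange. At E12.5 in Chd8+/+ neocortex, Neo1 stood first with 24.9 ± 0.666 CPM per kb, followed by Dcc with 14.5 ± 0.983, Ntn1 with 10.6 ± 0.676, Ntn4 with 8.21 ± 0.831 and Unc5b with 6.03 ± 0.318. Unc5a with 3.03 ± 0.238, Dscam with 2.65 ± 0.158, Unc5d with 1.30 ± 0.111 and Unc5c with 0.848 ± 0.0693 CPM per kb closed the order, and no neighbours overlapped between libraries. At P5, Neo1 was again first with 56.6 ± 1.20 CPM per kb, now before Unc5a with 19.1 ± 0.339, Dscam with 12.9 ± 0.337 and Unc5d with 6.41 ± 0.174. Ntn1 with 5.52 ± 0.130, Unc5c with 2.79 ± 0.113, Ntn4 with 2.77 ± 0.0349, Unc5b with 2.44 ± 0.235 and Dcc with 2.27 ± 0.187 CPM per kb came last. At P5 the ranges of Unc5c and Ntn4 overlapped, as did those of Unc5b and Dcc. In Chd8+/- neocortex the order was the same at both stages. There Dcc and Ntn1, and Unc5d and Unc5c, overlapped at E12.5, and Unc5c, Ntn4 and Unc5b did so at P5, where Dcc lay below Unc5b in all libraries, with 1.56 ± 0.127 against 2.15 ± 0.352 CPM per kb.

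Both stage comparisons came from 1 edgeR fit of 12 libraries, so their standard errors and p-values share 1 estimate of the spread. The same 9 directions were found in the Chd8+/- libraries, whose fold changes compare other libraries than those above. Dcc fell 9.03-fold, Ntn4 3.51-fold, Unc5b 2.74-fold and Ntn1 2.59-fold, and Unc5a rose 6.22-fold, Unc5d 5.19-fold, Dscam 4.64-fold, Unc5c 2.67-fold and Neo1 2.11-fold. All 9 were called by edgeR, against 41.3% of genes called higher and 41.6% called lower. The adjusted p-values of edgeR ran from 4.93e-14 for Unc5a to 7.66e-05 for Unc5c. Without the second E12.5 Chd8+/- library, the log2 fold change of Unc5c was 1.96 (SE 0.0943) in place of 1.42 (SE 0.242) and that of Unc5b -1.21 (SE 0.104) in place of -1.45 (SE 0.159). In the Chd8+/+ comparison, which does not hold that library, the SE of Unc5c was then 0.0796 in place of 0.245.

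**Figure D2:**
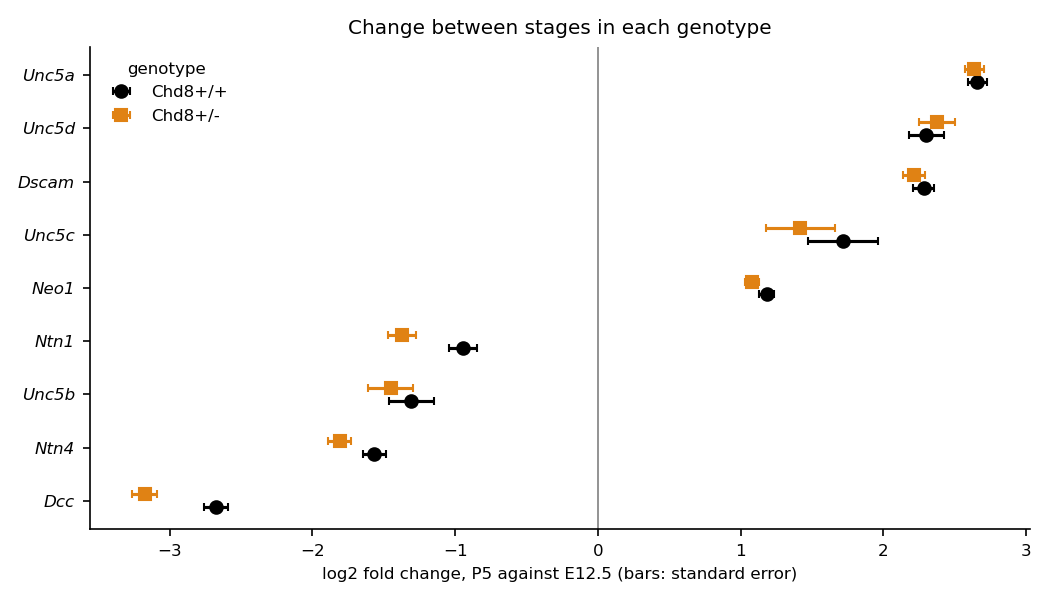
Log2 fold change at P5 against E12.5 (x axis) of the 9 genes in Chd8+/+ (circles) and Chd8+/- (squares) libraries, from 1 edgeR fit of 12 libraries; bars are standard errors. Dcc, Ntn4, Unc5b and Ntn1 lie below 0 and the other 5 genes above 0 in both genotypes, from -3.17 for Dcc in Chd8+/- to 2.66 for Unc5a in Chd8+/+.

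Genes with long genomic spans were in general higher at P5. In Chd8+/+ neocortex the median log2 fold change was -0.13 for genes up to 10 kb, 0.27 between 100 and 200 kb, 0.85 between 200 and 500 kb and 1.89 for the 207 genes over 500 kb. Dscam (2.28) and Unc5d (2.30) ranked 115 and 116 from the lowest of those 207, close to their median. Dcc ranked 1, the lowest change of all genes over 500 kb, where 15.9% were lower at P5 at all. With offsets that remove each library's trend with genomic span, the log2 fold change of Dcc was -4.51 (SE 0.0700), that of Ntn1 -1.70 (SE 0.0828) and that of Ntn4 -2.02 (SE 0.0762). The rises became smaller, to 0.88 (SE 0.0729) for Dscam, 0.91 (SE 0.123) for Unc5d, 0.50 (SE 0.0564) for Neo1 and 0.60 (SE 0.228, edgeR adjusted p = 0.0242) for Unc5c, while that of Unc5a was 2.40 (SE 0.0775). In Chd8+/- neocortex the rise of Unc5c was no longer called with these offsets, at 0.45 (SE 0.227, edgeR adjusted p = 0.0789).

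**Figure D3:**
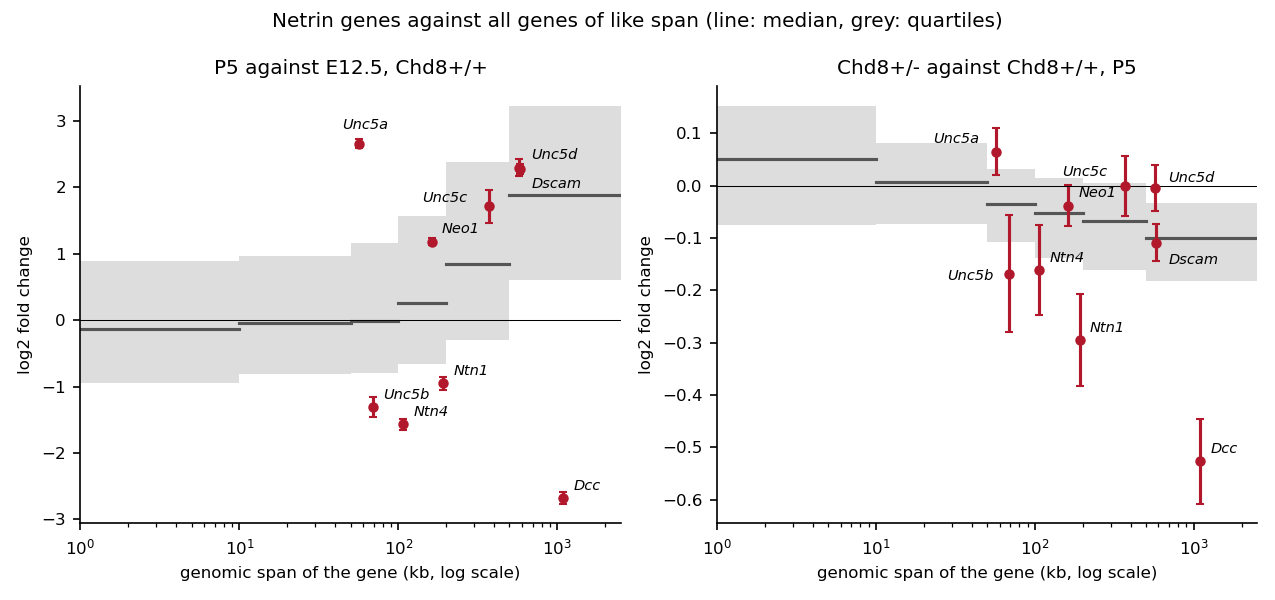
Log2 fold change (y axis) against the genomic span of the gene in kb (log axis) for the stage comparison in Chd8+/+ libraries (left) and the genotype comparison at P5 (right). Points are the 9 genes with standard errors, lines and grey bands the median and quartiles of all genes tested in 6 classes of span, of which the first also holds genes under 1 kb and the last all genes over 500 kb. Dcc, with 1092.3 kb, lies below the band of its class in both panels.

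Other genes of the pathway were read from 5 lists. Of the netrin family and partner ligands, 5 of 9 tested rose and 1 fell between E12.5 and P5 in Chd8+/+ neocortex, with a median log2 fold change of 0.45 against -0.02 over all genes. The largest were the membrane-anchored netrin G proteins, Ntng1 from 3.01 ± 0.379 to 24.6 ± 4.53 CPM (log2 fold change 3.03, SE 0.182) and Ntng2 from 11.8 ± 0.0424 to 46.2 ± 1.76 CPM (1.97, SE 0.0677). Ntn3, the remaining member of that list, was not analysed here. Of 9 coreceptors and related receptors 3 rose and 5 fell, with the largest changes in Cntn4, a contactin, from 3.57 ± 0.545 to 31.1 ± 1.81 CPM (3.13, SE 0.125), and Itgb4, an integrin subunit, from 1.08 ± 0.115 to 7.60 ± 0.269 CPM (2.81, SE 0.136).

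Downstream of the receptors, 12 of 24 cytoplasmic effectors rose and 10 fell, with a median log2 fold change of 0.07. The largest were the Dcc-binding ubiquitin ligases Trim9, from 18.8 ± 0.932 to 229 ± 5.66 CPM (3.60, SE 0.0849), and Trim67, from 54.5 ± 4.55 to 526 ± 27.0 CPM (3.27, SE 0.0828). Both thus rose while Dcc itself fell. Of 6 proteases that shed or cleave receptors 1 rose and 3 fell, among them the γ-secretase subunit Psen2 (log2 fold change 1.79, SE 0.0720) and the sheddase Adam10 (-0.49, SE 0.0458). Of 10 projection neuron transcription factors 4 rose and 5 fell, among them the layer 4 factor Rorb (log2 fold change 2.05, SE 0.0755). Over all genes 41.4% were called higher and 41.7% lower, and with 6 to 24 genes a list, nothing particular to a list is read from these counts.

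At E12.5 none of the 9 genes differed between the genotypes by edgeR, where 0.00553% of genes, which is Chd8 alone, were called. None of the 9 had an unadjusted p under 0.05, and none was called by DESeq2 or limma-voom. All 9 overlapped between genotypes, where 5.9% of all genes lay apart with Chd8+/- lower and 5.45% with Chd8+/- higher. Dcc was at 109, 126 and 122 CPM in the Chd8+/+ libraries and at 121, 121 and 104 CPM in the Chd8+/- libraries, a log2 fold change of -0.04 (SE 0.0727, edgeR adjusted p = 0.982). Neo1 and Dscam were equally close, with 0.05 (SE 0.0498) and -0.06 (SE 0.0947). A change of Dcc within that standard error is not detectable with 3 libraries a group, and larger changes can also go uncalled. Without the second E12.5 Chd8+/- library, for example, Unc5b was not called at -0.28 (SE 0.0712, edgeR adjusted p = 0.695).

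A single library held the extreme level of 6 of the 9 genes at E12.5, but not of Dcc, Ntn4 or Unc5a. Ntn1 was at 68.9, 63.2 and 70.9 CPM in Chd8+/+ and at 68.0, 82.8 and 68.9 CPM in Chd8+/- neocortex at E12.5, with the second Chd8+/- library highest. Unc5c was at 17.9, 15.6 and 15.8 CPM in Chd8+/+ and at 15.01, 32.5 and 12.5 CPM in Chd8+/- libraries. Unc5b was at 37.7, 35.6 and 34.1 CPM against 28.7, 45.7 and 30.0 CPM. The same library thus held the highest level of Unc5c, Unc5b, Ntn1 and Neo1 of the 6, and the lowest of Dscam and Unc5d, where it had 8.20 CPM against 10.9 to 13.5 CPM in the others.

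With that library, Unc5c had the largest difference of the 9, a log2 fold change of 0.28 (SE 0.296, edgeR adjusted p = 0.968), and without it the sign turned, to -0.26 (SE 0.0963, edgeR adjusted p = 0.852). Unc5b went from -0.04 (SE 0.154) to -0.28 (SE 0.0712, edgeR adjusted p = 0.695), Ntn1 from 0.11 (SE 0.0810) to 0.02 (SE 0.0644), Unc5d from -0.10 (SE 0.159) to 0.08 (SE 0.102) and Dscam from -0.06 to 0.01. Ntn4 (0.07, SE 0.0737) and Unc5a (0.07, SE 0.0849) differed little. In none of these fits did a difference pass the threshold.

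That second E12.5 Chd8+/- library also differed in markers of other regions. Tcf7l2, a transcription factor of thalamus and caudal forebrain, was at 158 CPM there against 24.1 to 30.1 CPM in the other 5 libraries, and Gbx2, a thalamic factor, at 9.08 against 2.90 to 3.68 CPM. Of the 7 thalamic markers 5 were highest in it, and the rest lay within the range of the other libraries. The sum of the 7 was 399 CPM against 216 to 244 CPM, and most of this excess was Tcf7l2. The 8 meningeal markers summed to 1074 CPM against 517 to 791 CPM. Of the 10 dorsal cortex markers 8 were lowest in it, with a sum of 1280 CPM against 1496 to 1688 CPM. The part of these markers in the levels of Unc5c, Unc5b, Ntn1, Dscam and Unc5d was not tested.

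At P5 the difference between genotypes was what the genes were chosen with, so it is given as a description. Dcc was at 18.5, 19.1 and 16.4 CPM in the Chd8+/+ libraries and at 11.4, 12.7 and 13.4 CPM in the Chd8+/- libraries, a log2 fold change of -0.53 (SE 0.0808), or 1.44-fold lower. Every Chd8+/- library lay below every Chd8+/+ library, with counts of Dcc from 479 upwards. Ntn1 was at 34.5, 34.3 and 33.2 CPM against 23.1, 30.3 and 29.7 CPM, a log2 fold change of -0.30 (SE 0.0882), or 1.23-fold lower. Dscam was at 96.5, 95.2 and 92.0 CPM against 85.1, 90.2 and 87.7 CPM, a log2 fold change of -0.11 (SE 0.0352). The genotypes did not overlap in these 3 of the 9 genes, where 12.2% of all genes lay apart with Chd8+/- lower.

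The other 6 genes overlapped at P5. Ntn4 was at 10.2, 10.02 and 10.3 CPM in Chd8+/+ and at 8.39, 8.72 and 10.2 CPM in Chd8+/- libraries (-0.16, SE 0.0854), and Unc5b at 14.98, 14.5 and 12.5 against 11.2, 14.8 and 11.4 CPM (-0.17, SE 0.112). Neo1, the gene with the highest level, was at 403, 406 and 421 against 414, 393 and 392 CPM (-0.04, SE 0.0383). Unc5a was at 76.5, 78.1 and 79.4 against 87.1, 80.4 and 77.3 CPM, a log2 fold change of 0.06 (SE 0.0448) and the one positive value of the 9 in this fit. Unc5c (-0.00, SE 0.0575) and Unc5d (-0.01, SE 0.0433) lay within 1 standard error of 0. With each library left out in turn, Unc5a ranged from 0.0168 to 0.111, Unc5c from -0.0515 to 0.0554 and Unc5d from -0.0279 to 0.0297, so the signs of Unc5c and Unc5d turned. Neo1 ranged from -0.0628 to -0.0140, and Ntn4 from -0.24 without the third Chd8+/- library to -0.11 without the first. Unc5b was at -0.31 without the second Chd8+/- library, at -0.09 without the first and at -0.10 without the third.

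**Figure D4:**
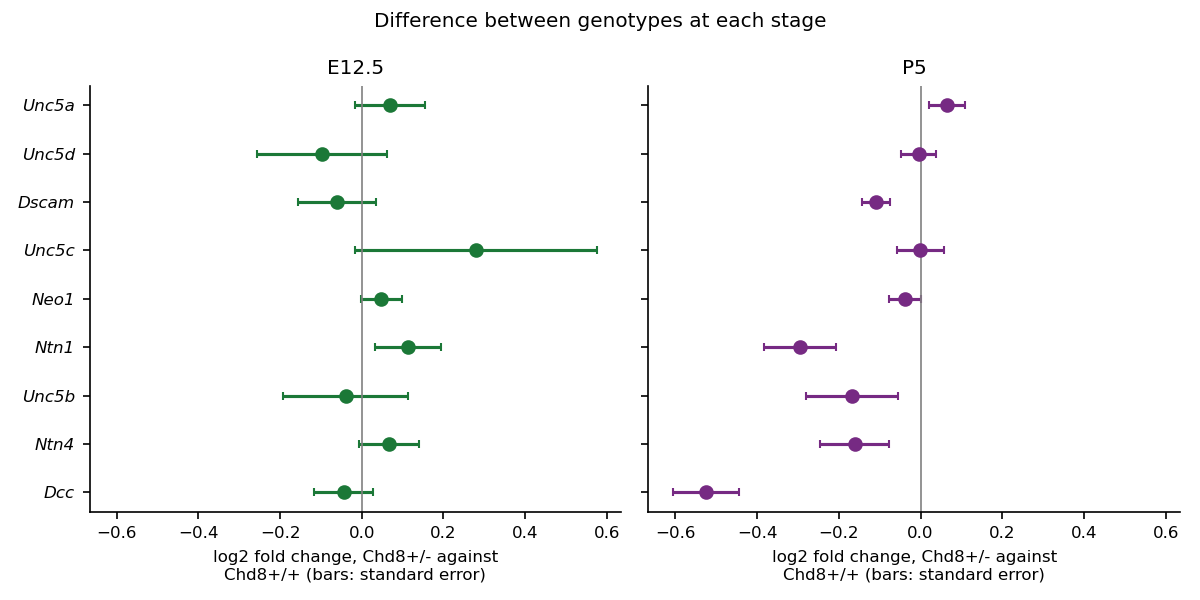
Log2 fold change in Chd8+/- against Chd8+/+ libraries (x axis) of the 9 genes at E12.5 (left) and P5 (right), from separate edgeR fits of 6 libraries; bars are standard errors. At E12.5 the points lie between -0.10 and 0.28, with the longest bar for Unc5c, and at P5 they lie between -0.53 for Dcc and 0.06 for Unc5a.

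By edgeR none of the 9 genes was called at P5, where Chd8 alone was called (0.00536% of genes). DESeq2 called Dcc and Ntn1, and 5.22% of the 12467 genes it tested. These calls come from the comparison that informed the choice of the genes, so they are no test of it and nothing is read from them. Without the first Chd8+/- library the log2 fold change of Ntn1 was -0.18 (SE 0.0451) and that of Dcc -0.46 (SE 0.0774). Without the third, which differed most from its replicates, they were -0.34 (SE 0.1003) and -0.57 (SE 0.0894).

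Genomic span went with this difference too, in the other direction from the stage comparison. At P5 the median log2 fold change of Chd8+/- against Chd8+/+ was 0.05 for genes up to 10 kb and -0.10 for the 206 genes over 500 kb, of which 83.5% were lower. Dcc ranked 1 from the lowest of those 206, Dscam 94 and Unc5d 171. With the span offsets, the log2 fold change of Dcc was -0.40 (SE 0.0682) and that of Ntn1 -0.23 (SE 0.0747), while that of Dscam was -0.00 (SE 0.0338). Ntn4 (-0.11, SE 0.0819) and Unc5b (-0.13, SE 0.104) stayed below 0 with these offsets and Unc5a stayed above it (0.10, SE 0.0530). The sign turned to positive for Unc5d (0.10, SE 0.0413), Unc5c (0.09, SE 0.0703) and Neo1 (0.03, SE 0.0502). At E12.5 the median of the genes over 500 kb was 0.03.

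Markers of a neighbouring region moved with Dcc and Ntn1 at P5. The 16 markers of striatal projection neurons and ganglionic eminence summed to 509 to 545 CPM in the Chd8+/+ and 386 to 471 CPM in the Chd8+/- libraries, and 12 of the 16 lay apart between genotypes, all lower in Chd8+/-, beside 12.2% of all genes. Among them Drd1, a dopamine receptor of striatal neurons, was at 25.5 to 27.5 against 18.3 to 22.6 CPM. The first Chd8+/- library had the lowest sum, the lowest level of 13 of the 16 and the lowest level of 6 of the 9 netrin genes, Dcc, Ntn1, Dscam, Ntn4, Unc5b and Unc5d. The 8 choroid plexus markers summed to 442 to 570 against 327 to 384 CPM, with 7 of 8 apart, and the 8 endothelial markers to 228 to 258 against 205 to 229 CPM, with 3 of 8 apart. The 10 dorsal cortex markers summed to 849 to 912 against 865 to 923 CPM, with 3 of 10 apart, all lower in Chd8+/-. The 9 Cajal-Retzius and subplate markers summed to 410.2 to 415 against 362 to 385 CPM, with 1 of 9 apart, the secreted glycoprotein gene Reln, at 349 to 357 against 300.3 to 321 CPM. Reln made most of that sum. Of these 9, 5 had a positive and 4 a negative log2 fold change (median 0.02). The 8 meningeal markers summed to 315 to 347 against 302 to 395 CPM, with 1 of 8 apart and lower in Chd8+/-, and 7 of the 8 had a positive log2 fold change (median 0.14). The 7 thalamic markers summed to 164.9 to 206.3 against 164.5 to 173.5 CPM, with 0 of 7 apart. Of these 7, 5 had a negative log2 fold change (median -0.19). The first Chd8+/+ library had the highest thalamic sum, with Tcf7l2 at 20.2 CPM against 3.96 to 7.03 CPM in the other P5 libraries. It also held the highest level of Ntn1, Dscam and Unc5b at P5. None of the markers of these lists was at 0 in a P5 library. The part of these markers in the levels of Dcc and Ntn1 was not tested.

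**Figure D5:**
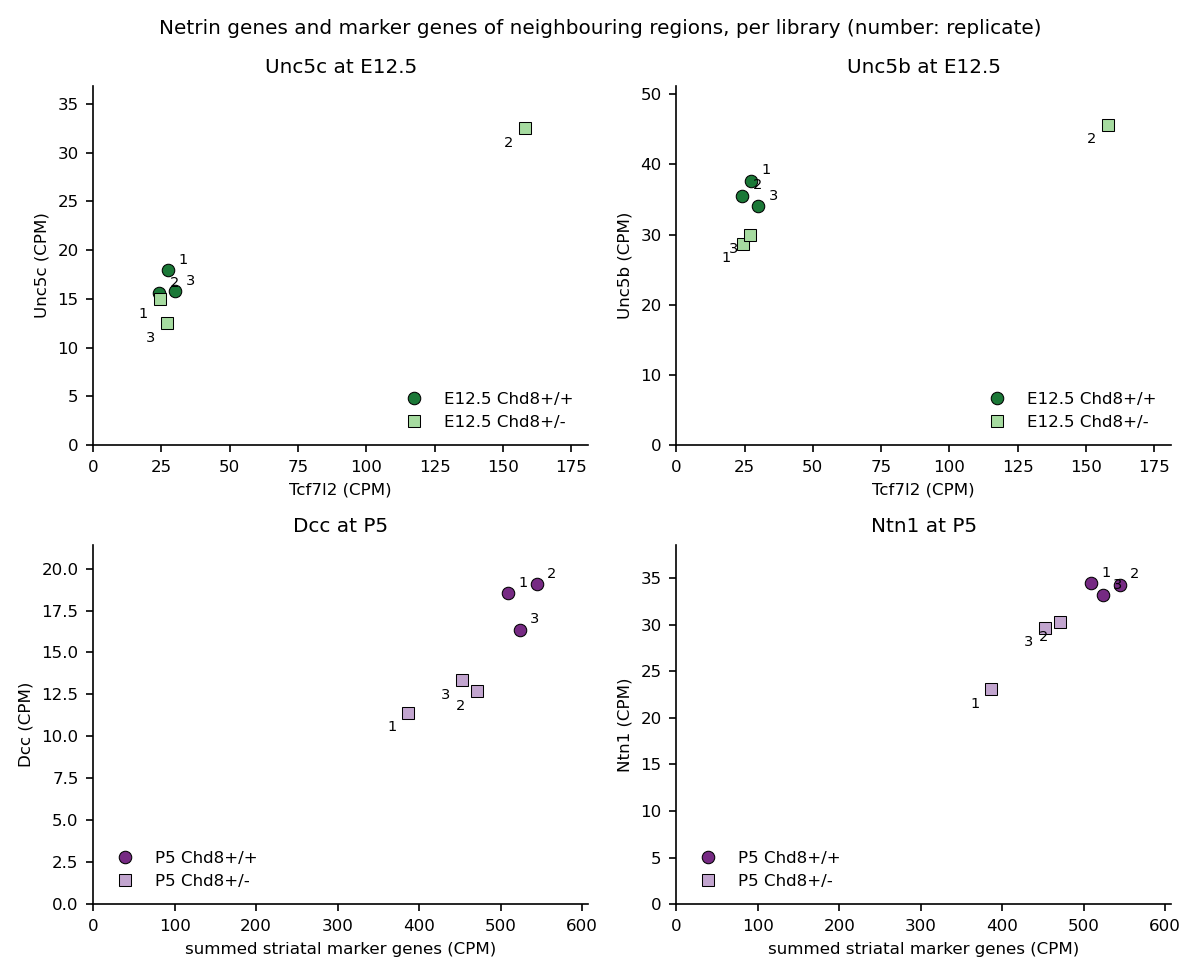
Levels of Unc5c and Unc5b at E12.5 against Tcf7l2 (upper panels), and of Dcc and Ntn1 at P5 against the sum of 16 striatal and ganglionic eminence markers (lower panels), in CPM within the stage; circles are Chd8+/+ and squares Chd8+/- libraries, and the number beside a point is the replicate. The second E12.5 Chd8+/- library stands apart at 158 CPM of Tcf7l2, and at P5 the first Chd8+/- library has the lowest marker sum, at 386 CPM, with the lowest Dcc and Ntn1.

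The difference between the stages in the genotype effect contains the P5 comparison and is likewise a description. It was -0.50 (SE 0.117) on the log2 scale for Dcc, -0.43 (SE 0.138) for Ntn1, -0.30 (SE 0.339) for Unc5c, -0.24 (SE 0.115) for Ntn4 and between -0.15 and 0.08 for the other 5. Without the second E12.5 Chd8+/- library the value of Unc5c turned to 0.25 (SE 0.120). When single libraries were left out, the sign turned for 4 more genes, with ranges of -0.29 to 0.11 for Unc5b, -0.13 to 0.06 for Dscam, -0.07 to 0.05 for Unc5a and -0.09 to 0.26 for Unc5d, while Dcc (-0.56 to -0.41), Ntn1 (-0.49 to -0.31), Ntn4 (-0.33 to -0.16) and Neo1 (-0.12 to -0.05) stayed below 0. With the span offsets the value turned positive for Dscam (0.085, SE 0.103), Unc5a (0.042, SE 0.107) and Neo1 (0.0037, SE 0.0796). Those of Dcc (-0.325, SE 0.0908) and Ntn1 (-0.315, SE 0.115) stayed below 0 with these offsets. By edgeR none of the 9 genes and 0.0% of the 19676 genes tested were called. At an unadjusted p under 0.05 there were 2 of the 9 and 1972 of all genes, and DESeq2 called none of the 9 and 8 of all genes.

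In the pathway lists no gene was called by edgeR between genotypes at either stage. At P5 DESeq2 called 4 genes, all lower in Chd8+/- libraries and named here after their values were seen. They were 2 of 9 coreceptors, 1 of 24 effectors and 1 of 10 transcription factors, with 0 of 9 ligands and 0 of 6 proteases, beside 5.22% of all genes, where 442 of the 651 called were lower. Robo1, a Slit receptor that binds Dcc, was at 148 to 155 against 118 to 129 CPM (log2 fold change -0.27, SE 0.0422), and Cntn4 at 28.5 to 31.7 against 24.9 to 27.2 CPM (-0.22, SE 0.0588). Trio, an exchange factor for Rac that acts below Dcc, was at 251 to 260 against 232 to 241 CPM (-0.12, SE 0.0361). Bcl11b, a transcription factor of corticospinal and of striatal neurons, was at 181 to 196 against 140 to 171 CPM (-0.28, SE 0.0663). The medians of the 5 lists at P5 lay between -0.14 for coreceptors and 0.02 for projection neuron transcription factors, against 0.00 over all genes.

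Across the 12 libraries, with the mean of each stage subtracted, the gene of the family most like Dcc was Ntn1, with a Pearson r of 0.741 in log2 CPM. It was followed by Dscam (0.566), Ntn4 (0.507), Unc5b (0.455) and Neo1 (0.372), while Unc5c (0.105), Unc5d (0.0657) and Unc5a (-0.141) were near 0. Among 15429 genes the 5 most like Dcc were Tnks (0.962), Edem3 (0.959), Magee1 (0.958), Pcdhgb6 (0.957) and Trp53bp1 (0.957). All 5 were lower in Chd8+/- libraries at P5, with log2 fold changes from -0.45 for Pcdhgb6 to -0.12 for Edem3, and lay between -0.01 and 0.03 at E12.5. The genotype means were not subtracted, so the P5 difference of Dcc enters r. Genes lower at P5 are therefore what this choice selects, and nothing is read from their direction. These correlations rest on 12 libraries that share depth, scaling and the genotype difference, and are given as a description.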

How the data were processed

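RNA of neocortex from 12 libraries, 3 per genotype and stage, was sequenced in paired ends, with 2 runs per library. Per the submitters' processing notes and the study's methods, the authors trimmed reads with Trim Galore 0.4.1, aligned them to GRCm38.p4 with TopHat2 2.1.0 and counted them on Ensembl genes with featureCounts 1.5.0; the P5 counting set no strand, and that of E12.5 is not given in the sources used here. The deposited values are raw counts per gene and run, without normalization, with the exonic length of each gene. The runs of a library were summed (chi-squared between runs of 1.18 to 1.55 for each degree of freedom, where sampling alone gives about 1). Depth was 38774591 to 54695236 counts per library.

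Genotypes were compared within each stage, and stages within each genotype, with edgeR 4.0.16 (R 4.3.3): TMM, filterByExpr, quasi-likelihood test, Benjamini-Hochberg adjustment over all genes tested and a threshold of 0.05. Standard errors are from this test. The stage and interaction contrasts came from 1 fit of 12 libraries. Alternatives were DESeq2 1.42.0, limma-voom (limma 3.58.1), other scalings, a threshold of 0.1, no filter on low counts, offsets for exonic length or genomic span (loess, span 0.5), other sample sets, a replicate block and each library left out. The fits were tested on simulated data. Symbols were found for 46005 of 46603 gene identifiers. Named are all 9 netrin genes, Chd8, the 2 pathway genes per list with the largest called stage change, genes not tested, the 5 genes most like Dcc (log2 CPM with a prior count of 2, mean of at least 1 CPM) and markers that move with a result; some genes are not reported here. Genes and lists were chosen with earlier results of these data known. Promoter sequences are RefSeq's on GRCm38.p6 and were matched for 6 of the 9 genes.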

Additional observations from a re-analysis of the deposited data

How the results depend on the processing

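Between stages, the 9 calls in Chd8+/+ neocortex were made under every alternative run, and in Chd8+/- neocortex all were but that of Unc5c with span offsets, at 0.45 alone and 0.49 with the replicate block; the larger shift of long genes at P5 is what these offsets remove. At E12.5 no netrin gene was called under any alternative, and signs turned only when a library was left out. The log2 fold change then ranged from -0.104 to 0.0287 for Dcc, -0.167 to 0.0130 for Dscam, -0.00294 to 0.133 for Ntn4, -0.283 to 0.0796 for Unc5b, -0.262 to 0.532 for Unc5c and -0.264 to 0.0782 for Unc5d. The sign turned for Dcc (0.0287) and Unc5b (0.0578) without the third Chd8+/- library, for Unc5b (0.0796) without the first, for Dscam (0.0130), Unc5c (-0.262) and Unc5d (0.0782) without the second, and for Ntn4 (-0.00294) without the second Chd8+/+ library. At P5, where the genes were chosen with the difference known and the calls carry no weight, the count of netrin genes called was 0 with edgeR, 1 at a threshold of 0.1, 2 with DESeq2, 2 without the filter on low counts and 0 to 1 with each library left out, Dcc being called without the second Chd8+/- library. For the interaction it was 0, and 1 without the filter. In all genes at P5 the count was 1 with edgeR, 136 at a threshold of 0.1, 651 with DESeq2, 995 without the filter and 327 without the second Chd8+/- library; the cause was not tested. With 3 libraries a group, differences of low genes are limited in precision.

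Same-numbered libraries did not deviate together at E12.5 (correlations of -0.43, -0.19 and -0.29) and weakly at P5 (0.39, 0.11 and 0.03), so the numbers show no clear pairing of the samples. Not every library correlated best with its own number. At E12.5 the highest correlations were of Chd8+/+ library 1 with Chd8+/- library 2 (0.37), 2 with 3 (0.29) and 3 with 1 (0.38). Pairs of different numbers were not tested, and the replicate block does not model them. With the replicate block the count of netrin genes called was 0 at E12.5, 0 at P5, 9 in each stage comparison and 0 for the interaction.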
